A study of Mus musculus with 6 samples.

Results

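The 3 FOXA genes of the mouse, Foxa1, Foxa2 and Foxa3, were examined with Mipol1 and Ttc6, the coding genes that flank Foxa1. These 5 genes, of 21887 protein-coding genes on the assembled chromosomes, were taken by name, and the peaks of H3K27ac in each gene body plus 100 kb on each side were collected. H3K27ac, the acetylation of histone H3 at lysine 27, marks active promoters and enhancers. It was mapped by CUT&RUN, where a nuclease tethered to an antibody releases the DNA around a mark, in sorted cells of mouse embryonic lung at E16.5, an age in days. The series belongs to a study of the transcription factor MYRF in the mesothelium, the cell layer over the lung surface.

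Epithelium was sorted for EPCAM and podoplanin (PDPN), and mesothelium for podoplanin without EPCAM, and both gates left out CD45+ blood cells, CD31+ endothelium and cells stained by DAPI. Each had 2 H3K27ac libraries, by their titles from 25k and 100k cells in mesothelium and from 100k and 200k in epithelium. The cell numbers that the protocol states for H3K27ac hold neither 25k nor 200k, so the titles' numbers are uncertain. Embryos of both groups came from Myrf Fl/Fl matings, with no Cre named in the labels, and are described as wildtype in the series text. Lungs were pooled before sorting, and the labels do not say that the 2 libraries of a cell type came from separate pools. The p-values thus rest on the spread between single libraries alone, and that spread may be technical. Another 2 libraries, made with IgG from epithelial cells, were not analysed here.

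FOXA proteins are forkhead transcription factors that bind DNA wrapped on nucleosomes and help to open chromatin for other factors. In the lung they are known from the epithelium, which arises from endoderm, where Foxa1 and Foxa2 act in branching, in differentiation and at genes such as those of surfactant proteins and Shh. Foxa3 is best known from liver and gut. The mesothelium arises from mesoderm. Mipol1 encodes a coiled-coil protein and Ttc6 a protein with tetratricopeptide repeats, and neither is known as a regulator of transcription.

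In mm10 coordinates, Foxa1 lies at chr12:57540628-57548029 and Foxa2 at chr2:148042877-148046969. Foxa3 lies at chr7:19013283-19023539, and all 3 are on the minus strand. Mipol1 spans chr12:57230425-57457241, and Ttc6 spans chr12:57546704-57737911 on the plus strand. Foxa1 and Ttc6 share 1326 bp as annotated. The window around Foxa1 shares 201.3 kb, or 97.1% of its length, with that of Ttc6 and 116.6 kb, or 56.2%, with that of Mipol1. The 3 windows on chromosome 12 therefore form 1 stretch of 707.5 kb, and their results are not independent.

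The start regions of the FOXA genes are shown because the acetylation at them differed between Foxa1, Foxa2 and Foxa3. Each sequence is from RefSeq (GRCm38.p6, the assembly named mm10) and runs 5′ to 3′ on the gene's own strand, here minus, from 250 bases before an annotated start to 50 after it. Capitals mark every match, on either strand, to the forkhead core TGTTTAC, its variant TGTTTGC, the NKX2 core word CAAGTG, the GATA factor word AGATAA or the TATA box word TATAAA.
Foxa1, chr12:57546062-57546361: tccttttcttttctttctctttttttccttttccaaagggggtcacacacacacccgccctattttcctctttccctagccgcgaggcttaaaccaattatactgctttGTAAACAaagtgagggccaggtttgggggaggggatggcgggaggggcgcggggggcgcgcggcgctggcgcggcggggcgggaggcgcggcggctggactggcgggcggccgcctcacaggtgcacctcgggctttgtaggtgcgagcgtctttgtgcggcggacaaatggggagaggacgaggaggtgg
Foxa2, the middle start, chr2:148045899-148046198: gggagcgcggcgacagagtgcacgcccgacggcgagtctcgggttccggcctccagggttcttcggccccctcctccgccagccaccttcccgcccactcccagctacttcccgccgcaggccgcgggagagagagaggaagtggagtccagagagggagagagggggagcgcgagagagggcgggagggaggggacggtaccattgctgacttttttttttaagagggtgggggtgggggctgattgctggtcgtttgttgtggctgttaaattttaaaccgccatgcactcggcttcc
Foxa2, the inner start, chr2:148045415-148045714: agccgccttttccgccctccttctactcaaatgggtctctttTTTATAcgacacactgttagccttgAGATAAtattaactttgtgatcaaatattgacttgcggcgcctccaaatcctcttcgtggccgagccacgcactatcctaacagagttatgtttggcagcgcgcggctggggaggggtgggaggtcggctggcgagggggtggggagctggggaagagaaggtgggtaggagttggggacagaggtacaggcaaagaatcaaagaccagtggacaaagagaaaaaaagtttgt
Foxa3, chr7:19023490-19023789: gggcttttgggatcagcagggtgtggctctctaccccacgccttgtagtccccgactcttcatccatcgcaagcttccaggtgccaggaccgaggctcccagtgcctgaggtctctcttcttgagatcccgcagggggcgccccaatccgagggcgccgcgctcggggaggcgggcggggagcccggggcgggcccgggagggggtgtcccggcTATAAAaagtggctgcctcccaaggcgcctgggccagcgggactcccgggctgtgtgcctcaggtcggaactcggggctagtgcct
The Foxa1 window holds 1 TGTTTAC, on the opposite strand, a word found in 3.65% of 32851 RefSeq promoter windows. The inner Foxa2 window holds 1 AGATAA, found in 11.2% of windows, and 1 TATAAA on the opposite strand, found in 13.6%. A TATAAA also stands in the Foxa3 window, and none of these words is in the middle Foxa2 window. No word overlaps another in these windows. The Foxa1, middle Foxa2, inner Foxa2 and Foxa3 windows hold 26, 23, 13 and 22 CpG, against a median of 7 over all windows.

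At these starts, neither mesothelium library had a peak. A start window without a peak was the usual case in every library. Over all RefSeq promoter windows, 13.8 and 19.8% had a peak in the mesothelium libraries, against 14.3 and 14.3% in the epithelium libraries. The RefSeq start windows are not always at the annotated gene ends. Those of Foxa1 and Ttc6, and both Foxa2 windows printed above, lie inside the gene spans given earlier. Both Foxa2 windows printed above lay wholly under peaks in both epithelium libraries, with 300 of 300 bases covered in each. The outermost Foxa2 start, at chr2:148046920-148047219, had 17 covered bases in epithelium replicate 2 and none in replicate 1, whose nearest peak was 251 bp away. The nearest mesothelium peak to the inner Foxa2 start was 3345 bp away in replicate 1 and 49500 bp away in replicate 2. Over all RefSeq promoter windows, 1.19% were covered in both epithelium libraries alone, 2.13% in both mesothelium libraries alone and 4.04% in all 4 libraries.

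The Foxa1 start window had 107 covered bases in epithelium replicate 2, and in replicate 1 the nearest peak was 631 bp away, at chr12:57546992-57549576 over the annotated 5′ end of Foxa1. In mesothelium the nearest peak was 6194 bp away in replicate 1 and 40743 bp away in replicate 2. The Foxa3 start was covered in no library. Its nearest peaks were 7638 and 21041 bp away in the mesothelium libraries, against 17266 and 988 bp away in the epithelium libraries. The start window of Ttc6 was likewise without a peak, with distances of 19955 and 22940 bp in mesothelium, against 3118 and 14609 bp in epithelium. At the annotated 5′ end of Ttc6, epithelium replicate 2 had a peak at chr12:57546255-57547508.

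The peak lists as a whole were of like size. Mesothelium had 39010 and 41532 peaks over 35.7 and 39.8 Mb, against epithelium with 47873 and 46633 peaks over 44.4 and 41.4 Mb. Depth is not known from peak lists, and a base without a listed peak is not thereby free of acetylation. A smaller share of cells with the mark and less mark per cell cannot be told apart in such bulk samples. The called markers went with the labels. Of 9 mesothelium markers, 4 had significantly more length under peaks in mesothelium, against 1.15% of 19013 tested windows, and 0 less. Of the 9 epithelium markers 3 had less, against 2.10%, and 0 more. Among the uncalled, Msln and Esrp1 lay against their labels (log2 differences, mesothelium minus epithelium, of −0.15 and 0.27). Lrrn4, Upk3b, Krt8 and Krt18 went with theirs but were not called (0.23, 0.66, −0.27 and −0.17). The windows of Bnc1 and Gpm6a, mesothelial genes, had no peak in either epithelium library, and the window of Nkx2-1, a lung epithelial factor, had none in mesothelium replicate 2. Markers of mesenchyme were also acetylated in mesothelium, with 2 of 9 tested higher, Tbx5 and Col3a1. Endothelial Tek was higher and blood-cell Runx1 lower, each the single call among 7 tested markers of its kind.

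The length under peaks around Foxa1, Foxa2, Mipol1 and Ttc6 was lower in mesothelium than in epithelium, and for Foxa3 no difference passed the test. The Foxa2 window had 6.37 and 0.796 kb under peaks in the mesothelium libraries, against 45.3 and 58.5 kb in the epithelium libraries. Both mesothelium values lay far below both epithelium values, and replicate 1 was the higher of the mesothelium pair. Mesothelium averaged 3.58 ± 3.94 kb, against 51.9 ± 9.32 kb for epithelium (SD, n = 2 each). On the log2(kb + 0.5) scale, which understates folds against short lengths, the difference was −4.12 (SE 0.58, adjusted p = 0.000908, limma over 19013 windows with Benjamini-Hochberg adjustment). Only 4 windows had a more negative difference. In epithelium the Foxa2 window ranked 38 and 11 of 21887 by length under peaks, while in mesothelium it ranked 6669 and 17356.

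The Foxa1 window had 10.1 and 0.782 kb under peaks in mesothelium, against 29.2 and 28.8 kb in epithelium. The groups did not overlap, and the epithelium libraries were close to each other while those of mesothelium were not. Mesothelium averaged 5.43 ± 6.57 kb, against 28.99 ± 0.328 kb for epithelium (SD, n = 2 each), a log2 difference of −3.00 (SE 0.68, adjusted p = 0.0215, limma). By length it ranked 3294 and 17379 in mesothelium, against 217 and 181 in epithelium.

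For Mipol1, whose window reaches furthest from Foxa1, the length was 13.1 and 1.37 kb in mesothelium, against 30.3 and 40.4 kb in epithelium. The log2 difference was −2.81 (SE 0.64, adjusted p = 0.0224, limma). Ttc6 had 11.9 and 0.782 kb in mesothelium, against 34.1 and 32.2 kb in epithelium, with a log2 difference of −3.08 (SE 0.71, adjusted p = 0.0228, limma). Again neither group overlapped the other, but most of the Ttc6 window is that of Foxa1.

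The Foxa3 window was sparse in every library, with 0.774 and 1.61 kb in mesothelium, against 2.89 and 2.72 kb in epithelium. The groups did not overlap, yet the difference of −1.01 (SE 0.70) missed the threshold (adjusted p = 0.478, limma). All 4 Foxa3 values lay below the median window of their library, at 3.53 and 4.49 kb in mesothelium, against 4.28 and 3.96 kb in epithelium. The order of the FOXA genes by epithelial length was Foxa2, Foxa1, Foxa3, with no overlap between the libraries of any neighbouring pair. In mesothelium replicate 2, Foxa1 and Foxa2 were nearly level at 0.782 and 0.796 kb, and Foxa3 lay above both at 1.61 kb.

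**Figure D1:**
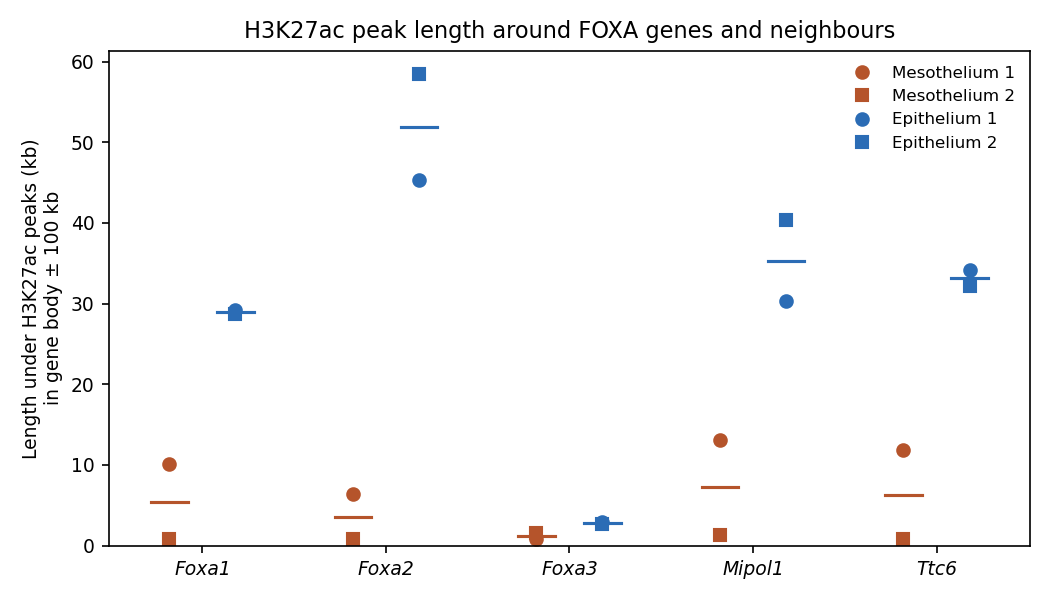
Length under H3K27ac peaks (kb, vertical axis) in the gene body plus 100 kb on each side of 5 genes, with mesothelium in brown left of epithelium in blue; circles are replicate 1, squares replicate 2, and lines the means of 2 libraries. At Foxa2 the epithelium libraries reach 45.3 and 58.5 kb above mesothelium at 6.37 and 0.796 kb, while at Foxa3 no library exceeds 2.89 kb.

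Of the 5 windows, 4 were called lower in mesothelium, against 2.10% of all 19013 tested windows, and 0 were called higher, against 1.15%. All 5 had both mesothelium libraries below both epithelium libraries, against 25.0% of tested windows. Called windows of Foxa1, Mipol1 and Ttc6 rest largely on the same peaks, so they count as 1 locus rather than 3. The median difference over all tested windows was −0.0068.

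On the log2(kb + 0.5) scale of the test, the mesothelium libraries differed from each other at these loci by more than the epithelium libraries did, although in kb the epithelium pair was the further apart at Foxa2 (SD 3.94 kb in mesothelium and 9.32 kb in epithelium). Without mesothelium replicate 1 the differences were −5.46 for Foxa2, −4.66 for Foxa1, −4.38 for Mipol1 and −4.85 for Ttc6. Without mesothelium replicate 2 they were −2.76, −1.32, −1.23 and −1.28 in the same order of genes. All 8 values passed the threshold in limma fits that take the lone mesothelium library to vary like the epithelium pair (adjusted p between 8.8e-18 and 0.0049). Without epithelium replicate 1 or 2, the Foxa1, Mipol1 and Ttc6 windows were no longer called (adjusted p between 0.086 and 0.18), while Foxa2 was (adjusted p = 0.012 and 0.032). For Foxa3, leaving out mesothelium replicate 1 or 2, or epithelium replicate 1 or 2, gave adjusted p between 0.54 and 0.70. With peaks of −log10 q of at least 2 alone, no window was called (adjusted p between 0.12 and 0.32 for the other 4 genes), with 10 kb flanks Foxa1 and Mipol1 were not, and with 0.1 kb added in place of 0.5 Foxa1, Mipol1 and Ttc6 were not.

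**Figure D2:**
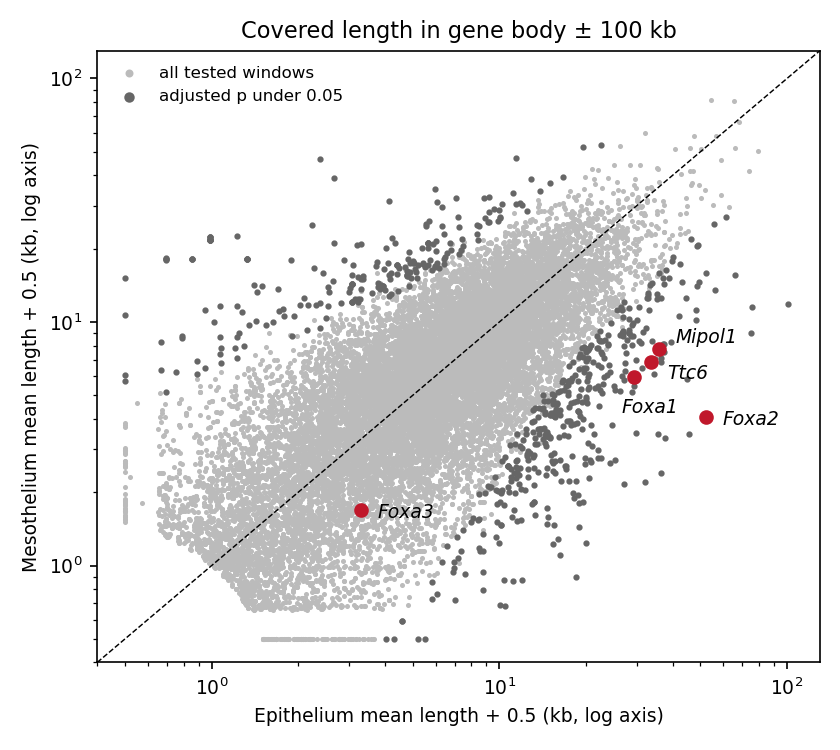
Mean length under peaks plus 0.5 kb in mesothelium (vertical log axis) and epithelium (horizontal log axis) for 19013 gene windows, each the mean of 2 libraries, with windows of adjusted p under 0.05 in dark grey, the named genes in red and a dashed line of equal length. Foxa2, Foxa1, Mipol1 and Ttc6 lie below the line among the dark windows, and Foxa3 lies below it among the uncalled ones.

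The acetylation around Foxa2 in epithelium lay largely in 1 broad domain. Merging overlapping peaks of the 4 libraries gave an element at chr2:148011272-148046936, 35.66 kb wide, the widest of 132212 elements in the genome. In epithelium replicate 2 it was 1 peak of 35.66 kb, the widest of 46632 in that library, where the next was 24.58 kb. In replicate 1 it was 3 peaks totalling 30.7 kb, of which peaks of 14.5 and 13.33 kb ranked 5 and 7 by width among 47869. Mesothelium replicate 1 had 7 separate peaks in it that covered 5.85 kb, and mesothelium replicate 2 had none. The deposited fold enrichment over the peak caller's background was at most 4.94 among the 7 peaks of mesothelium replicate 1, at a peak of 1.72 kb. It was 4.68 for the single peak of epithelium replicate 2. The highest of several short peaks and 1 value for a wide peak are not a like comparison. The epithelium peak ranked 2090 of 46632 by fold and 1 by width.

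The second widest element of the genome, 26.41 kb at chr12:56515466-56541877, overlaps Nkx2-1 and lies on the same chromosome as Foxa1. Nkx2-1 itself, at chr12:56531935-56536908, is 1003.7 kb from Foxa1. The Nkx2-1 window had 3.80 and 0 kb in mesothelium, against 33.3 and 38.7 kb in epithelium, a log2 difference of −4.63 (SE 0.72, adjusted p = 0.0019, limma).

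The domain was one-sided. It ends 33 bp inside the annotated 5′ end of Foxa2 and runs 31.6 kb beyond its 3′ end. The 100 kb on the 3′ side held 6.37 and 0 kb under peaks in mesothelium, against 41.1 and 51.8 kb in epithelium. On the 5′ side the values were 0 and 0.796 kb in mesothelium, against 1.30 and 2.64 kb in epithelium. The Foxa2 body, 4.1 kb long, was covered over 0 and 0% in mesothelium, and over 70.4 and 99.2% in epithelium. Most of the 3′ side is the annotated long non-coding RNA gene 9030622O22Rik (chr2:147944459-148040513), 2.36 kb from Foxa2. Its body held 5.94 and 0 kb under peaks in mesothelium, against 39.4 and 49.2 kb in epithelium. Of its 26 RefSeq start windows, 24 were covered in both epithelium libraries and in neither mesothelium library, against 1.19% of all such windows, but most of the 24 overlap one another under the same peaks and are not separate sites.

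**Figure D3:**
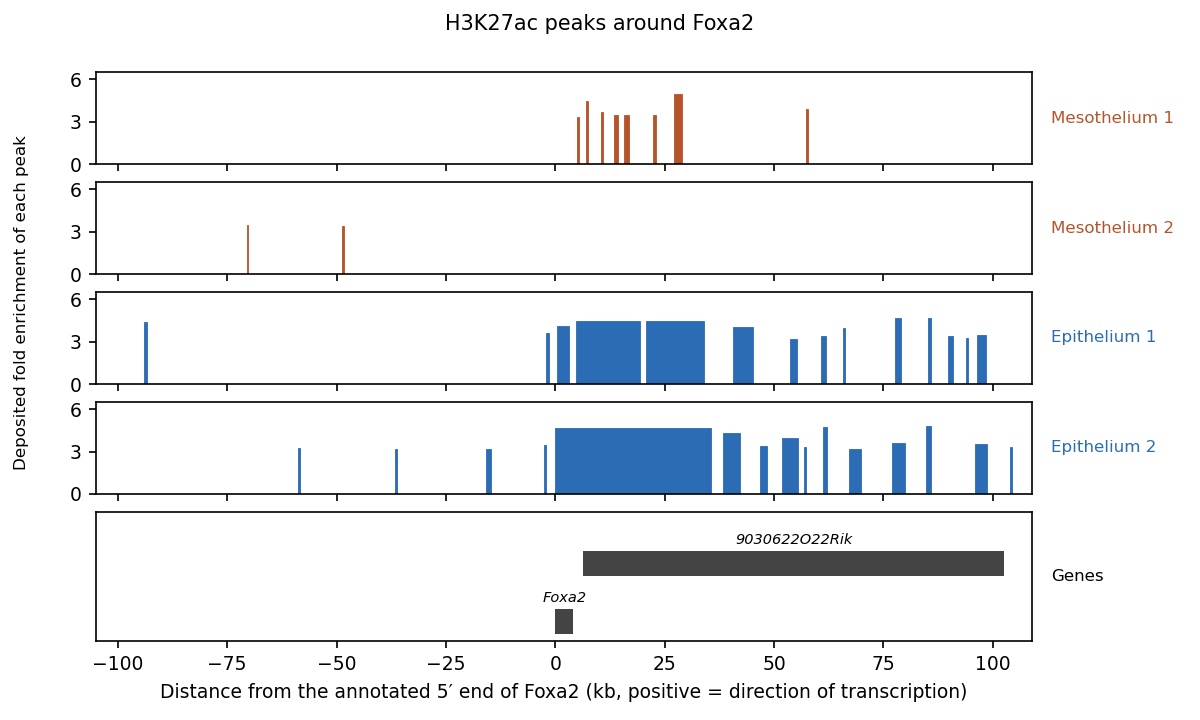
Peaks of each library around Foxa2, with the distance from its annotated 5′ end along the gene's direction (kb, horizontal axis) and the deposited fold enrichment (vertical axis), mesothelium above epithelium and the annotated Foxa2 and 9030622O22Rik at the foot. Epithelium shows wide blocks from the gene through its 3′ side, mesothelium 1 shows 8 narrow peaks on that side, and mesothelium 2 shows 2 on the other side.

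Around Foxa2 there were 21 elements. Peaks in both epithelium libraries and in neither mesothelium library formed 7 of them, or 33.3%, against 3.31% of all elements. They were between 1.17 and 6.83 kb wide, 6 of them inside 9030622O22Rik and 1, at chr2:148048351-148049524, on the 5′ side of Foxa2. The widest, at chr2:148001840-148008664, ranked 459 among all elements. Elements with peaks in both mesothelium libraries and in neither epithelium library numbered 0, against 2.60% of all elements, and those in all 4 libraries numbered 0, against 3.24%. Mesothelium replicate 2 had only 2 peaks around Foxa2, so few elements of either kind were possible. With 2 libraries in each group, 3 splits are possible and an exact permutation test cannot go below a two-sided p of 0.333, so no element was tested. Elements in epithelium alone numbered 13 without epithelium replicate 1 and 12 without epithelium replicate 2, where presence in the remaining library sufficed.

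Acetylation around Foxa1 was spread over many separate elements. In the joined stretch of chromosome 12, mesothelium had 18 and 4 peaks over 15.4 and 1.72 kb, and epithelium had 31 and 29 peaks over 38.9 and 48.0 kb. The median peak there was 630.5 and 391 bp wide in mesothelium, against 832 and 1254 bp in epithelium. The stretch held 59 elements, of which 46, or 78.0%, appeared in 1 library, against 80.8% in the genome. Elements in both epithelium libraries alone numbered 5, or 8.47% against 3.31% in the genome. Another 6, or 10.2% against 2.52%, had peaks in both epithelium libraries and 1 mesothelium library. Elements in both mesothelium libraries, with or without epithelium, numbered 0, and the 4 peaks of mesothelium replicate 2 left room for few. In the genome such elements made up 2.60% without epithelium, 2.23% with 1 epithelium library and 3.24% with both. Those in epithelium alone numbered 10 with mesothelium replicate 1 left out, and 22 or 26 when epithelium replicate 1 or 2 was left out.

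The widest, at chr12:57535274-57544868, was 9.60 kb and covers the 3′ part of Foxa1 and the bases beyond it. It was covered over 3.65 kb in mesothelium replicate 1 and 0 kb in replicate 2, against 5.84 and 9.56 kb in epithelium. The peak of epithelium replicate 2 ranked 16 by width in its library. A second element, at chr12:57546255-57549576 across the 5′ ends of Foxa1 and Ttc6, was 3.32 kb wide and was present in both epithelium libraries and in neither mesothelium library. The Foxa1 body, 7.4 kb long, had 0 and 0 kb under peaks in mesothelium, against 3.08 and 5.46 kb in epithelium, or 41.5 and 73.8% of it.

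In epithelium and mesothelium replicate 1, the 83.4 kb between Mipol1 and Foxa1 was the densest part of the stretch outside the Foxa1 body. In mesothelium replicate 2 the 100 kb before Mipol1 was denser, at 0.596%. Peaks covered 10.8 and 0.518% of the part between Mipol1 and Foxa1 in mesothelium, and 18.8 and 17.3% in epithelium. It holds the elements at chr12:57494831-57499351 (4.52 kb), chr12:57463460-57465682 (2.22 kb) and chr12:57508622-57510678 (2.06 kb), each with peaks in both epithelium libraries and mesothelium replicate 1. At the first of these, mesothelium had 1.93 and 0 kb, against 4.01 and 4.27 kb in epithelium. The second had the peak of highest fold in the stretch, 5.89 in epithelium replicate 1, which ranked 195 of 47869 peaks of that library by −log10 q. The element at chr12:57514559-57516865 (2.31 kb) was present in both epithelium libraries alone.

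Mipol1 was split at its midpoint, and peaks in epithelium gathered on the side nearer to Foxa1. That side held 1.15 and 0 kb in mesothelium, against 5.85 and 14.1 kb in epithelium. The far side held 2.25 and 0.341 kb in mesothelium, against 2.20 and 5.48 kb in epithelium, so that the groups overlapped there. The main element of the side nearer to Foxa1, at chr12:57444433-57449803, was 5.37 kb wide and overlaps the non-coding gene Gm16246. There mesothelium had 0.45 and 0 kb, against 3.25 and 5.31 kb in epithelium. On the far side, the element at chr12:57233997-57236925 was the single one of the 6 whose mesothelium peak came from replicate 2, with 0.341 kb.

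The 189.9 kb of Ttc6 beyond its overlap with Foxa1 held 2.38 and 0.35 kb under peaks in mesothelium, against 10.2 and 5.13 kb in epithelium, or 1.25 and 0.184% of it in mesothelium, against 5.40 and 2.70% in epithelium. In both epithelium libraries alone were elements at chr12:57622748-57624329 (1.58 kb) and at chr12:57662147-57663478 (1.33 kb), which covers the start of the non-coding gene BC042761. Past Ttc6 an element at chr12:57761142-57763695 (2.55 kb) was likewise in epithelium alone, and the 100 kb there held 0 and 0 kb in mesothelium, against 1.90 and 2.87 kb in epithelium. On the other side, the 100 kb before Mipol1 held 0.633 and 0.596 kb in mesothelium, against 0 and 0.504 kb in epithelium, and here mesothelium was the higher group in both libraries.

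**Figure D4:**
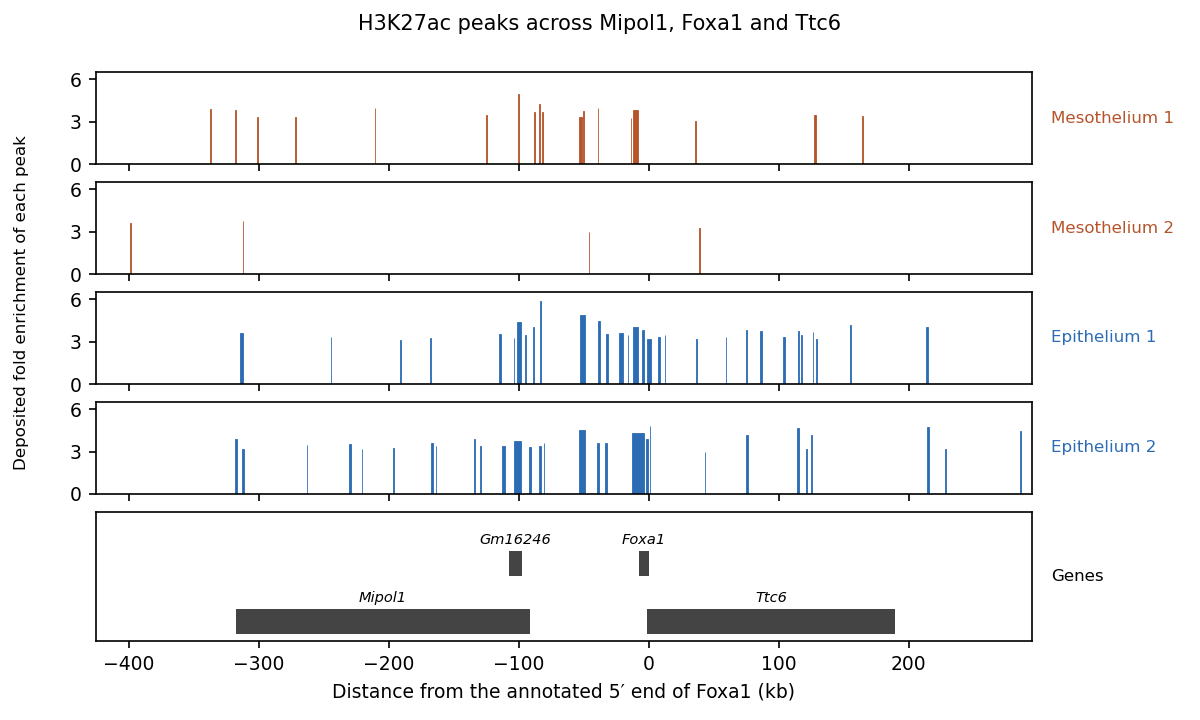
Peaks of each library across Mipol1, Foxa1 and Ttc6, with the distance from the annotated 5′ end of Foxa1 (kb, horizontal axis) and the deposited fold enrichment (vertical axis), mesothelium above epithelium and genes at the foot. Epithelium has 31 and 29 peaks, densest from the near side of Mipol1 to Foxa1, against 18 and 4 in mesothelium.

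Foxa3, by contrast in the number of elements, had 8 in 210.3 kb. Its body held 0 and 0 kb under peaks in mesothelium, against 0 and 0.15 kb in epithelium, the last from an element of epithelium replicate 2 at the gene's 3′ end (chr7:19012127-19013432). A single element had peaks of all 4 libraries, at chr7:19001966-19002875 between Mypop and Irf2bp1, with a fold of 4.17 and 3.65 in mesothelium and of 3.20 and 4.46 in epithelium. The mesothelium peaks in it share no base and are joined through the epithelium peaks. The widest, at chr7:19093791-19095869, covers the start of Six5, a homeobox gene. It had peaks in mesothelium replicate 2 and epithelium replicate 1, the second with a fold of 6.03 that ranked 101 of 47869 by −log10 q. The bodies of Nova2, Nanos2, Mypop, Rsph6a, Dmwd and Bhmg1 had no peak in any library.

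**Figure D5:**
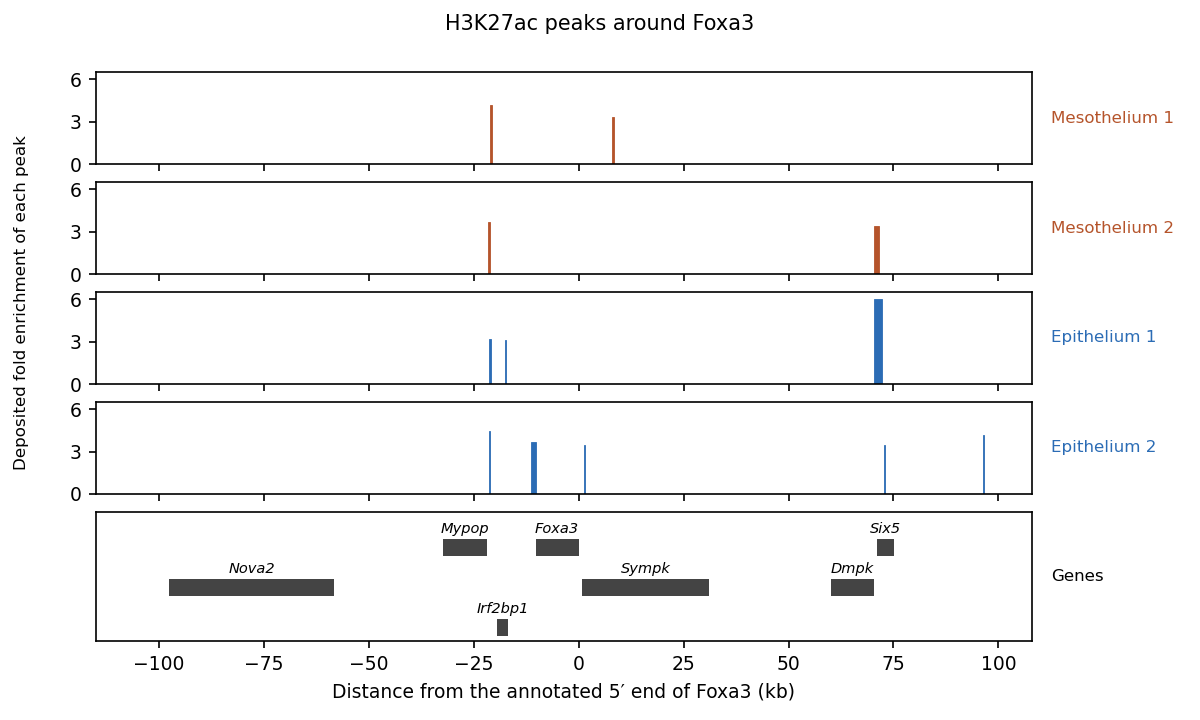
Peaks of each library around Foxa3, with the distance from its annotated 5′ end (kb, horizontal axis, increasing with chromosome position) and the deposited fold enrichment (vertical axis), mesothelium above epithelium and genes at the foot. Mesothelium has 2 and 2 peaks and epithelium 3 and 5, and the element left of Irf2bp1 holds peaks of all 4 libraries.

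Peaks of mesothelium replicate 1 at Foxa2, and 8 of 18 of those on chromosome 12, lay at sites acetylated in epithelium. At Foxa2, 8 of its 8 peaks overlapped an epithelium peak, and on chromosome 12 it was 44.4%, against 31.9% of its peaks in the genome. Of the same peaks, 0 of 8 and 0 of 18 overlapped a peak of mesothelium replicate 2, against 26.8% in the genome. The genome shares are not a like comparison. Epithelium peaks covered 41.1 and 51.8% of the 3′ side of Foxa2, where these 8 peaks lie. Mesothelium replicate 2 had only 2 peaks at Foxa2 and 4 on chromosome 12, so little overlap with it was possible. By length, 92.0% of the acetylated bases of mesothelium replicate 1 at Foxa2 and 53.0% on chromosome 12 were under epithelium peaks, against 29.4% genome-wide. For mesothelium replicate 2 the shares were 0% at Foxa2, 19.8% on chromosome 12 and 27.1% genome-wide.

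Epithelium markers were measured beside this. Within 10 kb of the 9 marker genes, the summed length under peaks was 13.0 and 6.11 kb in mesothelium, against 70.6 and 75.2 kb in epithelium, and 3 and 5 of the genes had no peak there in mesothelium, against 0 and 0 in epithelium. In their 100 kb windows the sums were 62.8 and 53.3 kb in mesothelium, against 155.8 and 154.3 kb in epithelium. Mesothelium replicate 1 exceeded replicate 2 in 7 of these 9 windows, as at Foxa1, Foxa2, Mipol1 and Ttc6, and in 34.4% of all windows. With 10 kb flanks it did so at 4 of the 9 genes, against 27.9% of all windows. At 100 kb, replicate 1 also exceeded replicate 2 for 4 of 7 blood cell markers, 4 of 8 endothelium markers and 2 of 10 mesenchyme markers. Of the lists described below, the same held for 8 of 14 lung endoderm factors, 6 of 11 FOXA targets and 5 of 12 other endoderm genes. The lung endoderm list shares Nkx2-1 with the epithelium markers, and the FOXA target list shares Cdh1 and Sftpc with them. For the 9 mesothelium markers the 100 kb windows summed to 48.2 and 106.7 kb in mesothelium, against 20.3 and 20.7 kb in epithelium, and replicate 1 exceeded replicate 2 in 0 of 9. The part of these marker signals, and of the 25k and 100k cells in the titles, in the results at the FOXA genes was not tested.

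Among 14 other transcription factors of lung endoderm, 5 were called lower in mesothelium, against 2.10% of all tested windows, and 0 higher, with a median log2 difference of −1.45. Among the called were Nkx2-1, given above, Etv5, an FGF-responsive factor (−3.92, adjusted p = 0.00027), Irx2, a homeobox factor (−4.09, adjusted p = 0.0036), and Grhl2, a regulator of epithelial junctions (−2.20, adjusted p = 0.025; all limma). The Etv5 window had 2.39 and 1.01 kb in mesothelium, against 26.7 and 36.6 kb in epithelium. Sox9, of the distal epithelium, had 0.502 and 0.549 kb in mesothelium, against 2.82 and 10.6 kb in epithelium, and missed the threshold (adjusted p = 0.072, limma).

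Of 11 lung genes known as FOXA targets, 1 was called lower and 0 higher, with a median of −0.86. It was Cdh1, which encodes E-cadherin, with 12.7 and 11.2 kb in mesothelium, against 31.4 and 38.5 kb in epithelium (−1.50, adjusted p = 0.014, limma). The surfactant protein gene Sftpa1 had 3.06 and 0.471 kb in mesothelium, against 9.21 and 8.94 kb in epithelium, and missed the threshold (adjusted p = 0.062, limma). Shh, a signal from the epithelium, had 10.3 and 8.07 kb in mesothelium, against 17.1 and 14.5 kb in epithelium (adjusted p = 0.28, limma). With 10 kb flanks Shh had 0 and 0 kb in mesothelium, against 5.78 and 4.38 kb in epithelium.

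Of 12 endoderm genes of liver, gut and pancreas, where FOXA factors also act, 10 had enough length to test. None was called in either direction by limma, and their median was 0.22. Hnf4a, a liver and gut factor, had 10.9 and 3.19 kb in mesothelium, against 4.29 and 3.32 kb in epithelium. With 10 kb flanks Hnf4a had 0 and 0 kb in mesothelium, against 0.379 and 0 kb in epithelium, so the mesothelium length lay further from the gene. Pdx1 and Cdx2, not tested, had 0 and 0 kb in mesothelium, against 0.567 and 0.613 kb in epithelium.

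Over the 4 libraries, the windows elsewhere in the genome most like that of Foxa1, by Euclidean distance of the centred log2(kb + 0.5) values, included those of Cdh3, Prep, Rlbp1 and Car3, at distances between 0.835 and 0.972. Cdh3, which encodes P-cadherin and neighbours Cdh1, had 9.58 and 1.63 kb in mesothelium, against 29.97 and 38.1 kb in epithelium. For Foxa2 they were Dgkg, Cdh3, Ttc6, Prdm16 and Rbm47, at distances between 1.05 and 1.31. Prdm16 had 3.74 and 2.20 kb in mesothelium, against 43.3 and 47.0 kb in epithelium. For Foxa3 they were Elapor2, Cisd1, Brinp3, Kif20a and Cdc23, at distances between 0.208 and 0.287, the last pair with equal values in every library.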

How the data were processed

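Per the labels' protocols, CUT&RUN for H3K27ac used a commercial kit and paired-end sequencing. The submitters' processing notes name the build mm10 and, without their roles, MACS2 2.2.9.1, Bowtie2 2.5.3, cutadapt 4.8, bedtools 2.31.1, DiffBind 3.6.5, deepTools 3.5.5, HOMER, FastQC and edgeR. The authors deposited 1 list of broad peaks per library, with a score that was not used, a fold (ratio) of enrichment, and −log10 p and −log10 q. Whether IgG served as control, and the threshold of calling, were not stated in the labels. No deposited −log10 q was under 1.00. The amount called varies with sequencing depth, unknown here, and without counts no count model could be run.

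Only peaks of the assembled autosomes and sex chromosomes entered. Gene positions came from RefSeq (GRCm38.p6). The length under peaks was tested with limma 3.58.1 under R 4.3.3, using median-centred values of log2(kb + 0.5), an intensity trend and Benjamini-Hochberg adjustment over windows with a mean of at least 0.5 kb; all 5 genes passed that filter. The call threshold was an adjusted p of 0.05. Peaks overlapping by at least 1 bp were merged into elements. Coverage and limma steps were tested on simulated data, with Python 3.11.15, pandas 2.3.3 and numpy 2.4.6.

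Genes and lists were chosen with earlier results of these data known. Named were the 5 genes, genes overlapping their windows, the 5 most similar windows over 2 Mb away or on other chromosomes per FOXA gene, up to 3 list members per direction by adjusted p with a few uncalled members added after their values were seen, and elements by recurrence and width. Results for 2 of the genes named this way are left out of the text. RefSeq start windows were given for Foxa1, Foxa2, Foxa3 and Ttc6, and Mipol1 is named only. Alternatives covered the peak threshold and number, window, scaling, constant added, filter, merging, overlap, replicate block and each library left out.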

Additional observations from a re-analysis of the deposited data

How the results depend on the processing

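No difference at the 5 windows changed direction in the 15 alternatives run for each, and Foxa3 was called in none (−1.98 to −0.75, adjusted p between 0.41 and 0.77). With only peaks of −log10 q of at least 2, nothing was called, although 949 windows were higher and 1068 lower at an unadjusted p under 0.05; Foxa2 was at −5.58, Foxa1 −3.76, Mipol1 −3.65 and Ttc6 −4.04 (adjusted p between 0.12 and 0.32, limma). At a −log10 q of at least 4, 0 windows were called in either direction (118 and 35 unadjusted, higher and lower), and of the 5 windows that of Foxa3 alone could be tested. With 10 kb flanks, Foxa1 (−2.95) and Mipol1 (−2.74) were not called, and with 0.1 kb added Foxa1 (−3.28), Mipol1 (−2.99) and Ttc6 (−3.35) were not; the cause was not tested. Leaving out 1 library gave −5.46 to −2.76 for Foxa2, −4.66 to −1.32 for Foxa1, −4.38 to −1.23 for Mipol1 and −4.85 to −1.28 for Ttc6.

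Windows called higher in mesothelium, 218 as reported, numbered 116 with 10 kb flanks and 112 with 0.1 kb added, and 107 to 288 with 1 library left out. Windows called lower, 400 as reported, numbered 225, 174 and 48 to 1040 in the same order (1040 with mesothelium replicate 1 left out, and 57 or 48 when epithelium replicate 1 or 2 was), and 265 with gene bodies and the nearest intergenic bases. With the replicate number as a block, 428 windows were higher and 792 lower. Same-numbered libraries deviated together with r = 0.0425 over windows. That is a single value from 2 pairs, so it cannot tell whether same-numbered libraries belong together. All calls at the 5 genes were as reported under the block.

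Elements in epithelium alone numbered 2 on chromosome 12 and 2 at Foxa2 at a −log10 q of at least 2, and 0 at both at a −log10 q of at least 4; 50 kb flanks left 3 at Foxa2. The element in all 4 libraries was lost at both thresholds (0 and 0). With 1 library left out, elements in epithelium alone numbered 6 to 26 on chromosome 12, 7 to 13 at Foxa2 and 0 to 4 at Foxa3, those in mesothelium alone 0 to 11 and those in all remaining libraries 1 to 7. Depth is unknown, so what it limits could not be measured.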
